A study of Mus musculus with 7 samples.

Results

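Among the accessible sites of mouse epiblast-like cells (EpiLCs), 404 were listed as much less open in Smad2/3 double knockout (DKO) cells than in wild-type (WT) cells. These strongly lost sites were chosen by measured values: on an autosome, a WT concentration of at least 5 and a DKO concentration lower by 1.5 or more, leaving out chromosome 6 from 68.8 to 80.1 Mb. A concentration is the log2 of the mean normalized ATAC-seq read number of a site in one genotype, so that 5 stands for a mean of 32 reads and a difference of -1.5 for a 2.83-fold lower mean. They make up 1.06% of the 38031 sites that had the WT concentration and position to be chosen, called eligible sites here, and were taken from a table of 75880 sites in all. Because the choice used both concentrations, the size of the loss is given only as a description.

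ATAC-seq reads chromatin accessibility through the insertion of the Tn5 transposase into open DNA. WT EpiLCs (clone CCE) were compared with Smad2/3 DKO EpiLCs (clone KT15.1F6), both 129/Sv//Ev, in 3 differentiations per genotype, and 1 library of Tn5-treated WT genomic DNA served as control in site calling. Both genotypes were grown as embryonic stem cells in N2B27 with MEK and GSK3 inhibitors and LIF and then for 48 h with activin A, Fgf2 and KSR on fibronectin, so that the controls also received the ligand of the pathway. The DKO line carries the Smad2 tm1Rob allele on both chromosomes together with a Cas9 nickase deletion that takes out the start of Smad3, and as each genotype is 1 clone, effects of clone and genotype cannot be told apart. The table gives 1 mean concentration per genotype and no value per differentiation, so the spread between replicates and the depth of each library are unknown, no difference below carries an error or a test, and all comparisons are of values side by side.

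Nodal and activin bind receptor kinases that phosphorylate Smad2 and Smad3, which then enter the nucleus with Smad4 and act at enhancers. The Smad proteins bind short DNA boxes weakly and are brought to many of their targets by partners, of which the forkhead protein FoxH1 is the best known in the epiblast. EpiLCs model the early post-implantation epiblast, in which this pathway induces its own inhibitors Lefty1 and Lefty2 and prepares cells for mesoderm and endoderm formation.

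Sequences of the lost sites are shown first because their motifs are taken up again with the values. All are from RefSeq's GRCm38.p6, the build of the site coordinates (mm10), read 5′ to 3′. Capitals mark the FoxH1 letters TGTGGATT, the Smad box CAGACA, the Smad palindrome GTCTAGAC, the Otx2 letters GGATTA and the octamer ATGCAAAT, on either strand. The first 3 are the central 300 bases of the lost sites of the Lefty locus on the plus strand, upstream of Lefty2 (chr1:180889101-180889400), upstream of Lefty1 (chr1:180924876-180925175) and at the Lefty1 start (chr1:180934526-180934825).
Lefty2 upstream: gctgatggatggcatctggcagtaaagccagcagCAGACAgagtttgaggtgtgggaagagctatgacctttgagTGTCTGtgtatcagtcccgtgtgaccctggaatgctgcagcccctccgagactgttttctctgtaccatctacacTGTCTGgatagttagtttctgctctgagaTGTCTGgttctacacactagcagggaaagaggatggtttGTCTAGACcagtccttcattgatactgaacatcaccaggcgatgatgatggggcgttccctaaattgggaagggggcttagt
Lefty1 upstream: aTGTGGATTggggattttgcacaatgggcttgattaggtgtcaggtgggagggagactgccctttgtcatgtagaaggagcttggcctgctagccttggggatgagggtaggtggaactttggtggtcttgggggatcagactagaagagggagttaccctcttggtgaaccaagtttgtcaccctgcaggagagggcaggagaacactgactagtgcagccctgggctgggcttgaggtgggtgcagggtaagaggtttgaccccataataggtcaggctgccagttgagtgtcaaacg
Lefty1 start: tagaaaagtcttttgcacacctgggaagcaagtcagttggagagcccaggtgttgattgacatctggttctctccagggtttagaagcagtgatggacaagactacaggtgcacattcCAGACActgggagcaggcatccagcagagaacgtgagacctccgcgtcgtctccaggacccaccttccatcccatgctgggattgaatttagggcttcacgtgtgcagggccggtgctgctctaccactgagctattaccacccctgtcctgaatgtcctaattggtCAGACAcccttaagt
The Lefty2 upstream site holds 4 Smad boxes and a Smad palindrome within these bases, the Lefty1 upstream site holds FoxH1 letters at the left end of the printed window, and the Lefty1 start holds 2 Smad boxes.

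The next 6 are 60 bases around the FoxH1 letters at 6 lost sites on 5 chromosomes, shown because the sequence around the letters is nearly shared. They lie near Gm45952 (chr4:49624834-49624893, plus strand), Gm12069 (chr11:25240730-25240789, minus), Rnf217 (chr10:32091778-32091837, minus), Nlgn1 (chr3:25977040-25977099, plus), Elp4 (chr2:105876041-105876100, plus) and Gm40603 (chr10:14340646-14340705, plus).
Gm45952: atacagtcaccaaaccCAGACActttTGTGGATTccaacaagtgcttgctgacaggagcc
Gm12069: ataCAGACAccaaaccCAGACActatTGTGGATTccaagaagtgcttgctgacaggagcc
Rnf217: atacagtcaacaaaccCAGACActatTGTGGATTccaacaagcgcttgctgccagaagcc
Nlgn1: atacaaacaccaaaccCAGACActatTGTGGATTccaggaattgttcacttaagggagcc
Elp4: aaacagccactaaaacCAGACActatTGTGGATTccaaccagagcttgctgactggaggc
Gm40603: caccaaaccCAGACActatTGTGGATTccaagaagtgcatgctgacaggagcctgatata
In each, a Smad box stood 4 bases before the FoxH1 letters.

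A further 4 windows show FoxH1 letters in other surroundings, in an intron of Ski (chr4:155189926-155189985, minus strand), near Fgfr2 (chr7:130328100-130328159, minus), in an intron of Celf2 (chr2:6594226-6594285, minus) and near C230079O03Rik (chr7:136339922-136339981, minus), where an octamer stands beside them.
Ski: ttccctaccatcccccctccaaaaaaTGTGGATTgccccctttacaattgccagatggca
Fgfr2: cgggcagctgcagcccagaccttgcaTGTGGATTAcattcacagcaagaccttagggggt
Celf2: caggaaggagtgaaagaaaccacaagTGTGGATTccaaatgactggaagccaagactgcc
C230079O03Rik: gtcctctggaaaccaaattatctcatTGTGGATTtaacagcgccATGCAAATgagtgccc
Among the lost sites with the lowest DKO levels, one upstream of Cyp2u1 (chr3:131317946-131318245, plus strand) is a run of simple repeats and one in an exon of the non-coding gene Gm35002, downstream of the Car10 start (chr11:93361626-93361925, plus strand), is mostly unmasked sequence; neither holds any of the 5 motifs in these 300 bases.
Cyp2u1: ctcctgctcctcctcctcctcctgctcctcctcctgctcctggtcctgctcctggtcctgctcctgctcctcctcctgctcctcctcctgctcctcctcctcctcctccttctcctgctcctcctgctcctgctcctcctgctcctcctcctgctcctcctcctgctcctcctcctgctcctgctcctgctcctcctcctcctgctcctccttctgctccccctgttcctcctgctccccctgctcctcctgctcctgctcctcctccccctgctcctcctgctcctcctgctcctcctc
Gm35002: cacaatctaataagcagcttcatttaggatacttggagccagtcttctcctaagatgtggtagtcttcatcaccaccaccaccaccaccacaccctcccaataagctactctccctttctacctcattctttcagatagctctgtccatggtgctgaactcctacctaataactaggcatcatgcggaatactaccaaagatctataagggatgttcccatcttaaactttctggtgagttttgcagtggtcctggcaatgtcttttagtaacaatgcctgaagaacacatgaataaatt

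The lost sites had a median concentration of 5.64 in WT EpiLCs (5.00 to 8.38) and 3.75 in DKO EpiLCs (-0.10 to 6.75). The median difference, DKO minus WT, was -1.82, with quartiles of -2.21 and -1.62, against -0.09 over the 37627 other eligible sites. Of the 404 sites, 262 (64.9%) lay between -2 and -1.5, 112 (27.7%) between -3 and -2, and 30 (7.43%) at -3 or lower. Lost sites were listed more often among weaker sites, from 1.78% of the eligible sites with a WT concentration of 5 to 5.5 down to 0.106% of those at 8 or above. At sites over 5 kb from a transcription start site (TSS) these shares were 2.01% and 0.488%. The scatter of WT and DKO levels shows the bulk of the sites close below the chosen line and a thin tail toward the lowest DKO value.

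**Figure D1:**
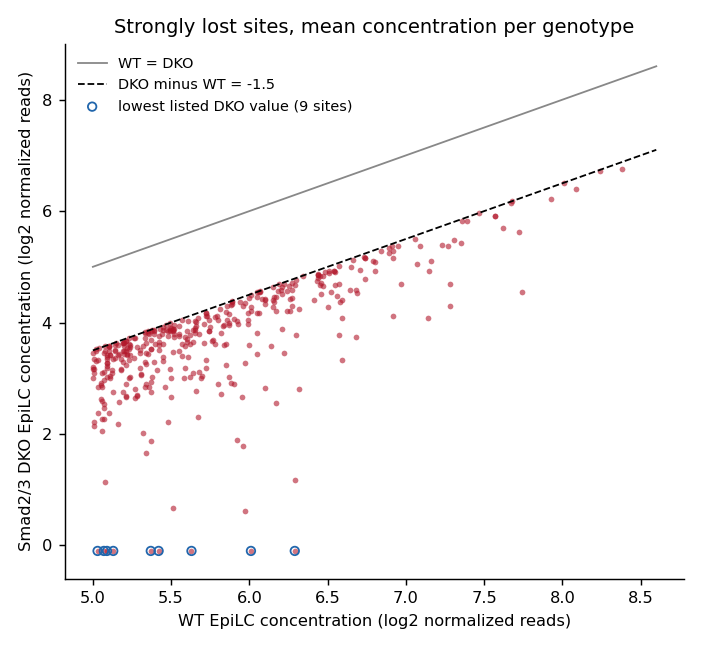
Mean log2 concentration of each of the 404 strongly lost sites in WT EpiLCs (x axis) and Smad2/3 DKO EpiLCs (y axis); the grey line marks equal levels and the dashed line a difference of -1.5, by which the sites were chosen. Most points lie close under the dashed line, and 9 sites, circled, sit at the lowest DKO value of -0.10.

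At the threshold, 11 lost sites had a difference of exactly -1.5, and 113 eligible sites lay just outside, over -1.5 and up to -1.4. The 5 nearest inside, by WT level, were near Gm40548 (WT 7.68, DKO 6.18), Eno1b (7.47, 5.97), C130083M11Rik (6.19, 4.69), Gm39311 (6.07, 4.57) and Hs3st4 (6.05, 4.55). The nearest outside, at -1.49, included sites near Ccdc59 (WT 7.76, DKO 6.27), Kif16b (6.68, 5.19), Nudt12 (6.12, 4.63) and Gm46170 (5.36, 3.87).

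At the targeted genes, the site 221 bp upstream of the Smad3 start (chr9:63757970-63758460) had a WT concentration of 5.42 and stood at the lowest DKO value. It lies in or beside the part of Smad3 deleted to make the line, so its DKO value goes with the label. A weaker site farther upstream (chr9:63759030-63759220) had 2.81 in WT and 0.34 in DKO, whereas the next site upstream (chr9:63803250-63803650) had 6.09 and 6.73. The Smad2 promoter site had 8.35 in WT and 8.28 in DKO, and 1 lost site lay 69250 bp upstream of Smad2 (chr18:76171680-76172000), with 5.74 in WT and 3.84 in DKO.

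As a check of the cell type, promoter sites within 1 kb of the TSS were listed for 5 of 7 EpiLC markers, at WT concentrations of 5.66 to 6.63, among them Fgf5 (6.63 in WT and 6.86 in DKO), Otx2 (5.86 and 5.76) and Sox2 (6.25 and 6.63). Pou5f1 and Pou3f1 had none within 1 kb. Promoters of naive embryonic stem cell markers were open as well, at 4.57 to 7.43 in WT. So were those of other lineages, at 3.42 to 7.61 for primitive endoderm, 4.55 to 8.50 for trophoblast, 5.91 to 8.70 for neural and 5.29 to 7.81 for fibroblast markers. Promoter accessibility therefore did not tell these cell types apart.

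The lost sites lay far from promoters. Of the 404, 343 (84.9%) were over 5 kb from the nearest TSS, against 55.0% of the other eligible sites, and the median distance was 40.5 kb against 8.06 kb. Only 18 (4.46%) lay within 1 kb, where 35.1% of the other sites were found. Stated the other way, the lost share of the eligible sites was 0.136% within 1 kb of a TSS, 1.14% from there to 5 kb, 1.29% from 5 up to 50 kb, 2.11% from 50 up to 500 kb and 2.44% farther away. Promoter sites are also the strongest, and among sites with a WT concentration under 7 the shares were 0.252%, 1.32%, 1.38%, 2.26% and 2.96%, in the same order. Among the other sites over 5 kb away, the median distance was 36.1 kb, whereas the 40.5 kb takes in lost sites at any distance. Of the 343 lost sites over 5 kb away, 183 were over 50 kb from a TSS. Of the 20690 other sites over 5 kb away, 8402 (40.6%) were.

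**Figure D2:**
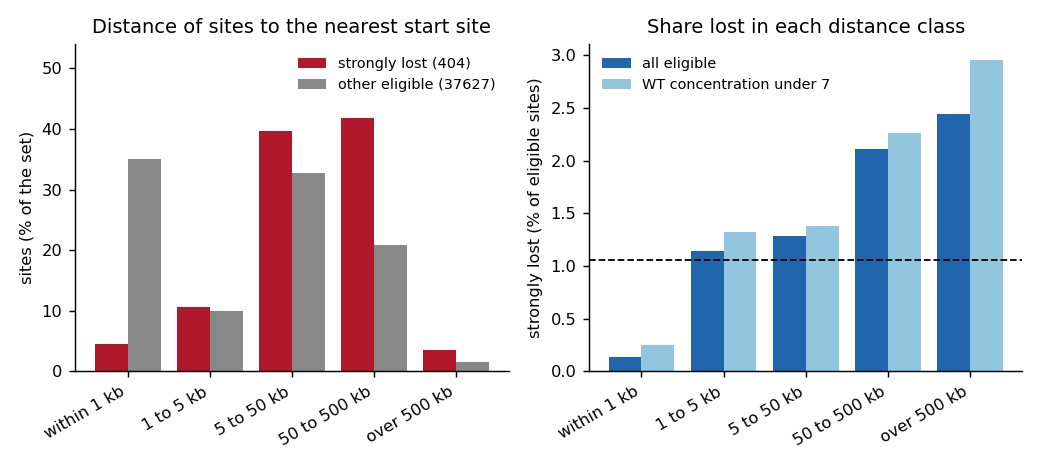
Left, share of the strongly lost sites and of the other eligible sites (y axis, %) by distance to the nearest RefSeq TSS (x axis); right, share of the eligible sites in each distance class that were strongly lost, over all WT levels and for WT concentrations under 7, with the dashed line at 1.06%. The lost share increases with each step away from the TSS, from 0.136% to 2.44%.

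By gene annotation, 206 lost sites (51.0%) were intergenic and 178 (44.1%) intronic, against 39.7% and 34.2% of the other eligible sites. Exons that hold untranslated sequence accounted for 4 lost sites (0.99%), against 16.0%, and coding exons for 7 (1.73%), against 6.88%. Of the other sites over 5 kb from a TSS, 53.7% were intergenic and 40.7% intronic. The shares of the lost sites, taken at any distance, were close to these. The lost sites at any distance were narrow, with a median width of 470 bp. It was 590 bp for the other eligible sites and 510 bp for those over 5 kb from a TSS.

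The 18 lost sites within 1 kb of a TSS were nearest to 10 protein-coding genes and 8 other genes. Besides Smad3 and Lefty1, the promoter site of Sgms1, a sphingomyelin synthase, stood out at 5.32 in WT and 2.01 in DKO. The promoter site of the non-coding gene Gm46124, within an intron of Bckdhb, had 6.59 and 3.33. The others included Sfi1 (7.62 and 5.69), Gstt1, a glutathione transferase (5.26 and 3.72), the sodium/proton exchanger gene Slc9a5 (5.44 and 3.79) and Cchcr1 (5.23 and 3.53). The Cchcr1 site lies 9.64 kb from the start of Pou5f1, which encodes Oct4, and is the lost site closest to it.

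Most lost sites stood alone, since 374 of them had no other lost site within 50 kb, and the median distance from one to the next was 1390 kb. The remaining 30 (7.43%) formed 13 multi-site loci, of which 10 held 2 sites, 2 held 3 and 1 held 4. For comparison, 1.90% of the other eligible sites, and 2.38% of those over 5 kb from a TSS, had a lost site within 50 kb. The 6 largest loci are given with all their members.

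The Lefty locus on chromosome 1 spanned 46.5 kb and held 3 lost sites around Lefty2 and Lefty1, the secreted inhibitors of Nodal. The site 3858 bp upstream of Lefty2 (chr1:180888430-180890070) was among the most open of all lost sites, at 8.09 in WT and 6.39 in DKO. The site 9997 bp upstream of Lefty1 (chr1:180924750-180925300) had 6.68 and 3.74. The site at the Lefty1 start (chr1:180934390-180934960), 347 bp upstream, had 6.01 in WT and the lowest listed value in DKO. One more site, inside Lefty1 (chr1:180937890-180938250), had 4.99 in WT and 1.90 in DKO and missed the WT minimum by 0.01. The low values were not spread over the whole interval: sites between and beside these had differences of 0.06, -0.17, -0.35 and -1.07 within the locus, and -0.11 and -0.50 on either side.

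The locus with the most members lay at Gys2, the liver glycogen synthase gene, and Ldhb, a lactate dehydrogenase subunit gene, on chromosome 6. Its 4 lost sites spanned 63.6 kb. The one in an intron of Gys2 (chr6:142469540-142469850) had 5.07 in WT and the lowest value in DKO. The 3 others, upstream of Ldhb, had 5.51 and 3.84 (chr6:142511590-142512040), 6.66 and 5.13 (chr6:142519110-142519890), and 5.06 and 3.10 (chr6:142532930-142533180). Weak WT sites in the plotted region around it were higher in DKO, for instance chr6:142493880-142494130 with 1.86 in WT and 4.50 in DKO and chr6:142602720-142602980 with 0.94 and 4.55. Of the 23 sites listed in the plotted region, 4 were higher by 1 or more in DKO.

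The Cfhr3 locus, named after a complement factor H-related gene, held 3 lost sites on chromosome 1 within 59.7 kb. They had 5.63 in WT and the lowest value in DKO (chr1:139657460-139658070), 6.17 and 2.56 (chr1:139692510-139693030), and 5.97 and 0.61 (chr1:139715960-139717130). Here the low values took in every listed site of a continuous stretch: 7 consecutive sites over 171 kb (chr1:139613320-139783890), with WT concentrations of 3.05 to 6.17, were all far lower in DKO: 4 stood at the lowest DKO value, and the other 3 had differences of -3.41, -3.61 and -5.36. The flanking sites had 7.22 in WT and 7.08 in DKO on one side and 5.26 and 5.88 on the other. Apart from this stretch, no run of more than 3 consecutive sites at -3 or lower was found on the autosomes outside the left-out segment; there was 1 run of 3 and there were 3 of 2.

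Around Car10, a carbonic anhydrase-related gene expressed in brain, 5 lost sites had Car10 as the nearest protein-coding gene, out of 22 eligible sites. Upstream, chr11:92770220-92770900 had 5.62 in WT and 3.03 in DKO, and chr11:92968690-92969260 had 6.32 and 2.80. Within the first part of the gene, chr11:93125220-93125720 had 5.96 and 1.79. A pair in the overlapping non-coding gene Gm35002, the fourth multi-site locus, had 6.24 and 4.20 (chr11:93333040-93333410) and 5.92 and 1.90 (chr11:93361560-93361990). The broad Car10 promoter site had 9.67 and 9.41, and the other eligible sites between chr11:92968690-92969260 and the Gm35002 pair had differences from -0.65 to 0.33. Among weaker sites of the same interval, chr11:93025830-93026100 had 4.36 in WT and the lowest value in DKO, and chr11:93179300-93179760 had 4.62 and 0.30.

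**Figure D3:**
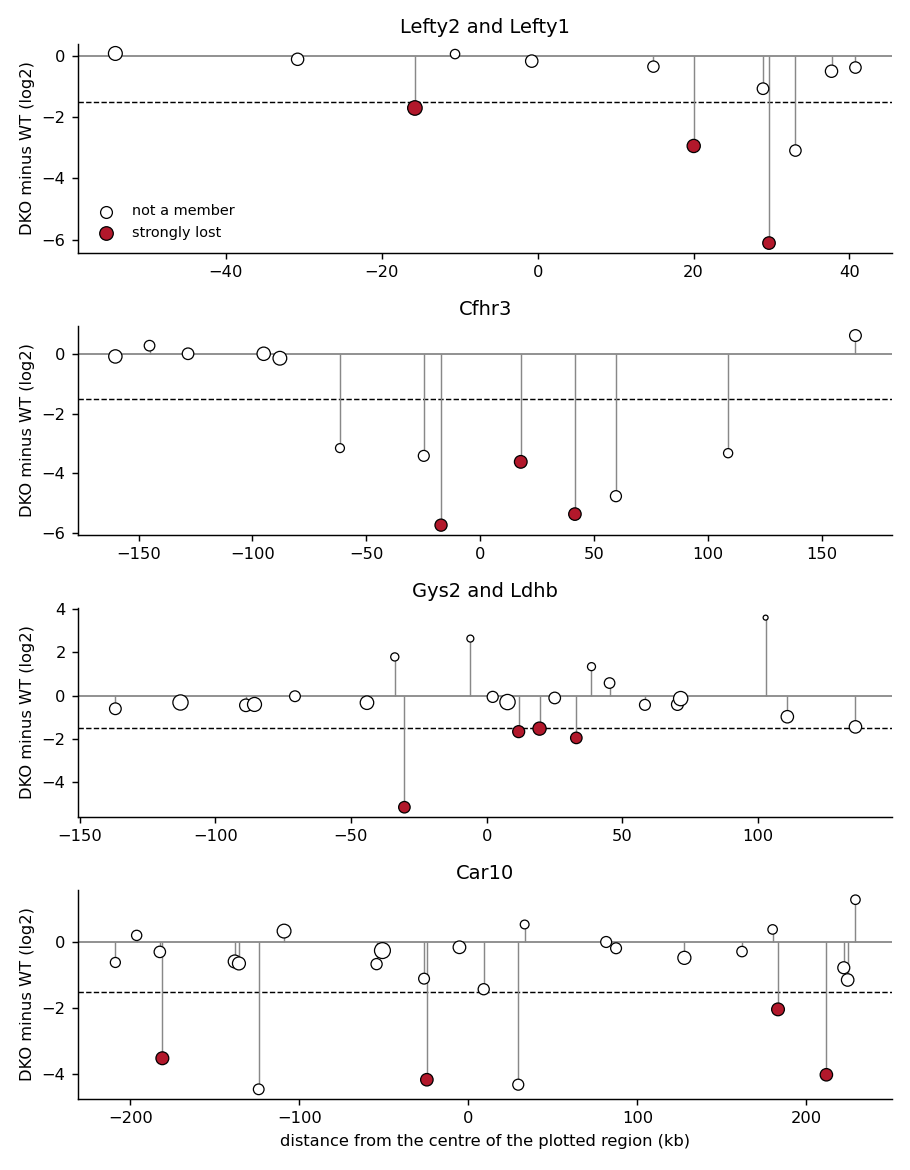
Difference in concentration, DKO minus WT (y axis, log2), of every listed site against its distance from the centre of the plotted region (x axis, kb) at 4 loci; filled points are strongly lost sites, open points are other sites, point area increases with the WT concentration, and the dashed line marks -1.5. At Lefty2 and Lefty1, Gys2 and Ldhb, and Car10 lost sites stand mostly among sites near 0, with 1 weaker site at Lefty1 (-3.09) and 2 at Car10 also low, whereas at Cfhr3 all 7 sites of a stretch of 171 kb are low. Points of sites at the lowest DKO value, which include 4 of these 7, the Lefty1 start, the Gys2 site and 1 weak Car10 site, are placed by their WT level alone.

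The fifth and sixth loci were pairs. At Ahsa1 and Ism2 on chromosome 12, 1 site had 5.84 in WT and 3.95 in DKO (chr12:87276720-87277160) and the other 5.08 and 1.13 (chr12:87294880-87295250). Upstream of Far2, a fatty acyl-CoA reductase gene, 2 sites within 3.79 kb had 5.36 and 2.84 (chr6:147884950-147885280) and 6.10 and 4.33 (chr6:147888160-147888740). The other 7 pairs lay at Kcnh8, at Bahd1 and Chst14, at Sorcs1, at Nrxn3, at Dhrs3, at Tenm4 and near Gm30904, and both sites of the Kcnh8, Sorcs1, Nrxn3, Dhrs3 and Tenm4 pairs fell within the transcribed region of the named gene.

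Over the whole genome, the nearest TSSs of the 404 sites belonged to 376 genes, of which 352 were nearest to a single lost site, 20 to 2 and 4 to 3. The 4 genes with 3 sites were Cfhr3, where the 3 were the only eligible sites, Car10 (3 of 15), Pclo (3 of 10) and Sorcs1 (3 of 28). Pclo encodes a scaffold protein of the presynaptic zone, and its 3 sites lay 76.6 to 219 kb upstream, with 5.67 in WT and 2.31 in DKO, 5.71 and 3.98, and 6.15 and 4.41. Sorcs1 encodes a sorting receptor, and its sites lay 156 to 685 kb downstream of the start, with 5.84 and 3.59, 6.01 and 4.27, and 5.87 and 3.95. Genes nearest to 2 sites included Lefty1, Far2, Pld5, the potassium channel gene Kcnh8 and the little-described genes Gm35002, Gm52259, Gm29681, Gm32076, Gm40307, Gm30915 and Gm36288.

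Many of these starts belong to non-coding or predicted genes, and the nearest TSS was of a protein-coding gene for 205 of the 404 sites (50.7%). With protein-coding starts only, 10 genes had 3 or more lost sites. After Car10 with 5 came Celf2, a splicing regulator, with 4 of 20 eligible sites, which lay 127 to 1070 kb from its start. The highest of them, in an intron of Celf2 (chr2:6593700-6595180), had 8.01 in WT and 6.50 in DKO. The ephrin receptor gene Epha6 had 3 of 11, Ldhb 3 of 5, Btbd3 3 of 20, Zfp608 3 of 27 and the glycosyltransferase gene Galnt17 3 of 59. The distances from these starts reached 1040 kb at Epha6, and the sites of Galnt17 included 2 inside the neighbouring gene Auts2.

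On 14 lists of genes of the pathway and of early lineages, there were 175 genes, 141 of them nearest to an eligible site. Of their 370 eligible sites 5 (1.35%) were lost, beside 1.06% of all eligible sites, and the median difference was -0.07 beside -0.10. The list of Nodal feedback genes and targets held 3 lost sites of 30 (10.0%), with a median of -0.34. Of its 30 sites 10 were lower by 1.5-fold or more, the 3 lost ones among them, beside 10.6% of all eligible sites that were not lost. The 3 lost ones were the 2 Lefty1 sites and a site in an intron of Ski, a repressor of Smad activity (chr4:155189670-155190110), with 6.32 in WT and 4.25 in DKO. The lost site 3858 bp upstream of Lefty2 is not counted here, because the start of Gm39714, which is not protein-coding, lies nearer, at 3392 bp. The list of ligands, receptors and Smads held only the Smad3 site, of 24. The definitive endoderm list held 1 of 22, upstream of the chemokine receptor gene Cxcr4 by 156 kb (chr1:128748420-128748810), with 5.64 and 3.09.

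The 11 other lists held no lost site. These were the primed (39 eligible sites), core (16) and naive (37) pluripotency genes, primitive streak and mesoderm (18), primitive and visceral endoderm (15), trophoblast and extra-embryonic ectoderm (24), neural (34), BMP signalling (37), FGF signalling (46), Wnt signalling (43) and primordial germ cell genes (14). Their median differences ran from -0.17 to 0.20, and counts of 0 among 14 to 46 sites are near the background of 1.06%.

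When any start within 100 kb was counted instead of the nearest one, 13 of 173 list genes with a RefSeq start had a lost site, and 14 lost sites were involved. This is 7.51% of these genes, beside 2.20% of all 21774 protein-coding genes, and it counts the deleted Smad3 as well as Lefty1 and Lefty2, which share their 3 sites. One lost site lay 58.0 kb from Fgf5, a marker of the primed epiblast (chr5:98311940-98312440), with 5.52 in WT and 3.74 in DKO. A site 61.4 kb from Fgfr2, an FGF receptor gene (chr7:130327860-130328510), had 5.37 and 2.76 and holds the FoxH1 letters shown above. Others lay near Pou5f1, the BMP inhibitor gene Nog (56.1 kb), Dusp4 (87.8 kb), Zfp281 (97.6 kb) and Tmprss2 (75.5 kb). The Fgf5 promoter site itself had a higher DKO than WT value, as given above.

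The promoters of the genes nearest to lost sites were slightly lower in DKO EpiLCs than other promoters. Of the 320 genes nearest to a lost site over 5 kb away, 140 had an eligible promoter site that was not itself lost, and these 190 promoter sites had a median difference of -0.14, beside 0.00 over the 13019 other promoter sites. Of the 190, 10 (5.26%) were lower by 1.5-fold or more, beside 2.35% of the other promoter sites.

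Eligible sites close to a lost site also had lower values in DKO EpiLCs. The 21 other eligible sites within 2 kb of a lost site had a median difference of -0.65 and 57.1% were lower by 1.5-fold or more, beside 10.6% of all other eligible sites. At 2 to 5 kb the median was -0.29 over 61 sites and 23.0% were lower to this degree. From 5 to 100 kb the medians lay between -0.24 and -0.19, and beyond 1000 kb the median was -0.07 over 27094 sites. Over all other eligible sites more than 5 kb from a TSS, at any distance from a lost site, it was -0.17, close to the values from 5 to 100 kb. Sites close to a lost site are not independent of it.

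**Figure D4:**
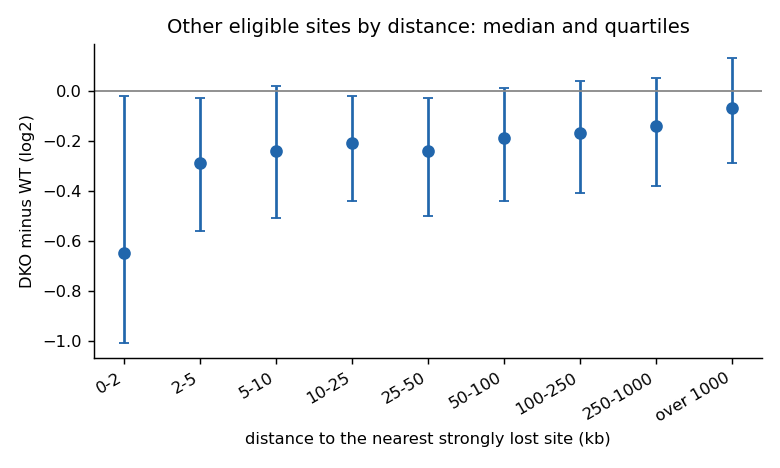
Median difference, DKO minus WT (y axis, log2), of the eligible sites that were not strongly lost, by distance to the nearest strongly lost site (x axis, kb); bars run from the lower to the upper quartile over sites. The median is -0.65 within 2 kb, between -0.29 and -0.19 from 2 to 100 kb and -0.07 beyond 1000 kb.

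The lost sites were spread over all 19 autosomes, at shares of the eligible sites from 0.31% on chromosome 13 (6 sites) and 0.481% on chromosome 9 (10) to 1.69% on chromosome 1 (50) and 1.80% on chromosome 16 (23). In blocks of 10 Mb, 79 of 255 held no lost site, 150 held 1 to 3, and 26 held 4 or more, with at most 8. The stretch of chromosome 1 from 130 to 170 Mb held 22 of its 50 lost sites, 2.78% of the 791 eligible sites there against 1.29% on the rest of the chromosome. Its bounds were not set in advance, and the blocks just before it had shares of 3.77% (110 to 120 Mb) and 2.96% (120 to 130 Mb). The stretch also held 16 of the 107 autosomal sites with a WT concentration of at least 4 and a difference of -3 or lower. Of the 41 with a DKO concentration of at least 4 and a difference of 3 or higher, it held 6. The other eligible sites of the stretch had a median of -0.13, near that of the genome. On chromosome 6, the block from 140 to 150 Mb, which holds the Gys2 and Ldhb, Far2 and Tmtc1 sites, had 8 lost sites among 256 eligible ones (3.12%), 2 of the 107 sites and 6 of the 41. Some other blocks had higher lost shares, among them chromosome 16 from 60 to 70 Mb (6.98%) and chromosome 5 from 10 to 20 Mb (4.96%).

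The 9 lost sites at the lowest DKO value of -0.10 were also unevenly placed, since 7 were on chromosome 1, which carries 7.79% of the eligible sites. Their differences are set by the WT level and this minimum, so only the WT levels are given. In order of WT concentration they included sites nearest to Niban1 (6.29), Lefty1 (6.01), Cfhr3 (5.63), Smad3 (5.42), Csrp1 (5.37), Slc19a2 (5.13), Platr5 (5.09) and Gys2 (5.07). The Niban1 site (chr1:151581940-151582750) and the Gys2 and Cfhr3 sites lay in introns of these genes. Over all autosomal sites with a WT concentration of at least 4, 33 stood at the lowest DKO value, 12 of them on chromosome 1, whereas 6 sites with a DKO concentration of at least 4 stood at the lowest WT value.

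Among sites with a DKO concentration above 0, the 10 lowest differences ran from -5.36 to -3.49. The first were the Cfhr3 site in an intron of Gm4788, the simple repeat upstream of Cyp2u1 (6.29 in WT and 1.17 in DKO; chr3:131317530-131318660) and a site in an intron of the heparan sulfate enzyme gene Ndst4, nearest to Gm35237 (5.51 and 0.67; chr3:125482430-125482910). Then came Car10 sites at -4.17, -4.02 and -3.52, the Ism2 site at -3.95, a site near Gm45952 at -3.69, the second Cfhr3 site at -3.61 and a site near Gm41991 at -3.49. Of the 500 bases around their midpoints, 86.2% were repeat-masked at the first Cfhr3 site, 98.4% at Cyp2u1 and 90.4% at Gm45952, but 19.4% at the first of the Car10 sites and 18.2% at the Ism2 site. The part of such repeats, or of sequence that differs between the lines, in these values was not tested. Over all lost sites, 60 (14.9%) were more than 50% masked, beside 9.21% of the other eligible sites and 15.2% of those over 5 kb from a TSS.

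The lost sites with the highest WT level lay mostly far from a TSS, with 7 of 10 at 28.4 to 390 kb. The site near Gm40892 on chromosome 12 (chr12:92707930-92708960) had 8.38 in WT and 6.75 in DKO, and an intronic site of the secreted-protein gene Tafa2 (chr10:123670780-123671660) had 8.24 and 6.72. They were followed by the Lefty2 and Celf2 sites and by a site near Gm31908 on chromosome 18 with 7.93 and 6.22. The largest difference among these 10 strong sites was upstream of Tmtc1 (chr6:148516580-148517080), with 7.74 and 4.55.

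In the sequence, the FoxH1 letters TGTGGATT had the largest ratio of shares, lost over other eligible sites, at 5.49 among the 20 letter strings searched. The ratio was 1.96 with 2 of the letters free, below those of the Smad palindrome (2.50), the octamer (2.20) and the T-box letters (2.09). The letters were found on either strand of the 500 bases around the midpoint at 38 lost sites (9.41%). Beside this, 1.71% of the other eligible sites and 2.28% of those over 5 kb from a TSS had them. The share increased step by step with the loss, from 1.12% of eligible sites with a difference above 0, through 1.68%, 2.92% and 5.35%, to 8.02% between -2 and -1.5 and 12.0% at -2 or lower. Of the 683 eligible sites with the letters 5.56% were lost, and of the 37348 without them 0.98%. At sites over 5 kb from a TSS these shares were 6.55% and 1.51%. The letters also stood nearer to the midpoint of the site, at a median of 80.5 bases in lost sites and 127 bases in the others. As the median lost site was 470 bp wide, the 500 bases can reach past a site's ends. At Gm45952 the letters lie just outside the listed site.

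The lost sites with the letters had much the same levels as those without, with medians of 5.88 in WT and 3.94 in DKO against 5.62 and 3.74. Of the 38, 19 (50.0%) also carried a Smad box, beside 43.8% of all lost sites, and 6 of these 19 are the sites with nearly shared sequence printed above. In 8 of the 38 the FoxH1 letters overlapped the Otx2 letters GGATTA, which they contain when followed by A. The FoxH1-bearing lost sites with the lowest differences after Gm45952 were in an intron of Lrriq3 (5.48 in WT and 2.21 in DKO), near Gm12069 (7.28 and 4.30) and in an intron of Itpk1 near Chga (5.88 and 2.92), followed by the Lefty1 upstream site.

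In a closer view of these 38 windows, 6 lost sites had the Smad box exactly 4 bases before the FoxH1 letters on the same strand, as printed above. This arrangement was noticed after the sequences were seen. It occurred in 8 of the 38031 eligible sites. Of these, 6 are the lost sites in which it was noticed, and their low values are set by the rule. The 2 that were not lost sites were also lower in DKO, near Slco1b2 (6.59 in WT and 5.16 in DKO) and Fggy (5.39 and 4.14). Eligible sites with the FoxH1 letters in any other arrangement numbered 675, of which 4.74% were lost, with a median difference of -0.28. Because the arrangement was found among lost sites, these values are no fair comparison for it. Sites too weak to be chosen, with a WT concentration of 4 to under 5, were not used by the rule. Of these 21181 sites 9 held the arrangement, and all 9 were lower, with a median of -2.18 and 7 at -1.5 or lower. Beside this, 3.29% of all such sites and 8.31% of the 421 with the FoxH1 letters were at -1.5 or lower. How far these 9 share their surrounding sequence is not given here, so they are not taken as independent examples.

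The 60 bases around the arrangement were largely shared between sites. Compared with the Gm45952 site, 57 bases were the same at Gm12069, 55 at Rnf217, 51 at Elp4, 48 at Nlgn1 and 55 at Slco1b2, but 23 at Fggy. Repeat masking covered 85.2% to 94.8% of the 500 bases at the 6 lost sites and at Slco1b2, and none at Fggy. Sites that share their sequence are not independent examples of the arrangement. The 6 lost ones lay 6.93 to 482 kb from the nearest TSS, in introns of Nkain2, Nlgn1 and Elp4 or between genes.

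Of the other motifs, the octamer ATGCAAAT bound by Oct4 and related factors was found in 9.41% of the lost sites, beside 4.28% of the other eligible sites and 5.89% of those over 5 kb from a TSS. The T-box letters AGGTGTGA were found in 3.71%, beside 1.78% and 2.15%. The Otx2 letters GGATTA were found in 21.3%, beside 13.0% and 16.2%, and the Zic letters CCTGCTG in 34.4%, beside 23.7% and 26.5%. The Smad box CAGACA, which occurs by chance in many windows, was found in 43.8%, beside 33.0% and 38.8%, and the palindrome GTCTAGAC in 4 lost sites (0.99%), beside 0.396% and 0.416%. The Sox letters ACAATG, the Gata letters AGATAA and the Tead letters GGAATG had shares 1.07 to 1.16 times those of the other sites over 5 kb away. The Lef/Tcf letters CTTTGAT, the AP-1 letters TGANTCA and the Grhl letters AACNGGTT had shares of 0.936, 0.853 and 0.594 times.

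GC-rich letters were less frequent. The Smad GC box GGCGC was found in 8.17% of the lost sites, beside 46.6% of the other eligible sites and 25.8% of those over 5 kb away, and the GC box GGGCGG in 9.16%, beside 39.9% and 18.5%. The 500 bases around the midpoint had a median GC content of 46.6% and 3 CpGs in the lost sites. The values were 52.0% and 11 in the other eligible sites and 47.8% and 6 in those over 5 kb from a TSS. The part of base composition in the motif shares was not tested beyond these side by side values.

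**Figure D5:**
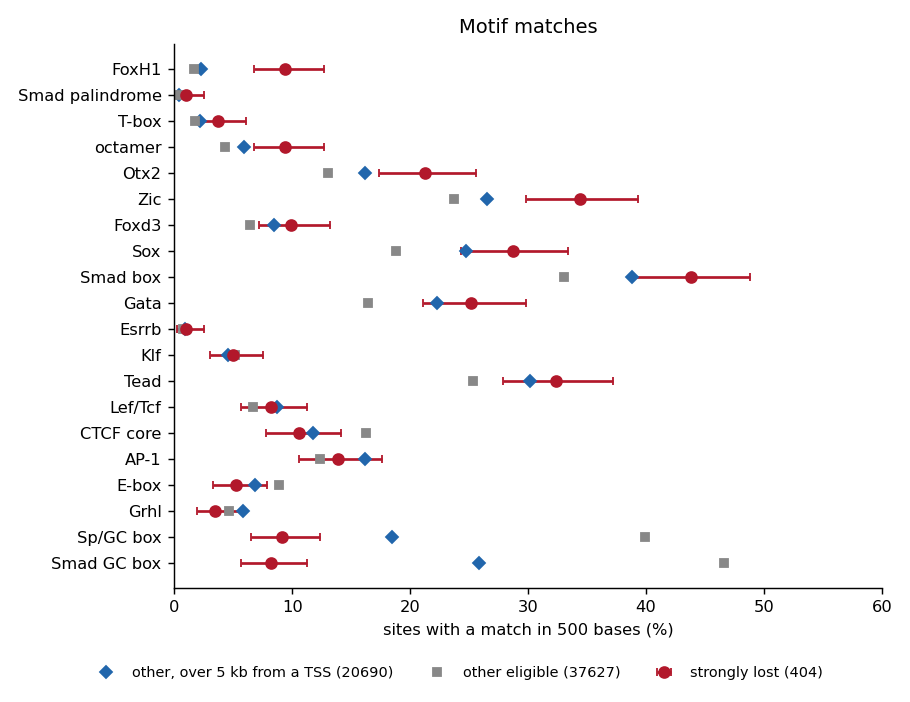
Share of sites (x axis, %) with at least 1 match in the 500 bases around the midpoint for 20 motifs (y axis). It is given for strongly lost sites, other eligible sites and other eligible sites over 5 kb from a TSS. Bars are exact 95% binomial intervals that treat sites as independent and cover counting error only. The FoxH1 letters are in 9.41% of the lost sites against 1.71% and 2.28%, and both GC boxes lie below the other sets.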

How the data were processed

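ATAC-seq libraries came from 3 EpiLC differentiations per genotype and from 1 sample of Tn5-treated WT genomic DNA. Per the methods, the authors used Bowtie2 to map read pairs to mm10, and left out multi-mapping, blacklisted and duplicate reads. DANPOS2 gave the sites, from all triplicates against the control, and DiffBind the comparison. The table they deposited holds, for each site, log2 concentrations, which are log2 means of normalized reads, per genotype and over both; how DiffBind normalized is not given in the sources used here. Its fold, p-value and FDR columns are the authors' own comparison and were not used, nor was the concentration over both genotypes.

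The difference is the DKO minus the WT concentration. Without values per differentiation, planned comparisons are described and not tested, and depth and precision are unknown. Intervals treat sites as independent and cover counting error only. Distance was measured between the middle of a site and the closest of 75058 TSSs of 115585 RefSeq transcripts (GRCm38.p6), and a site's gene is the gene of that TSS. Lost sites with midpoints up to 50 kb apart were linked into loci. A 1.5-fold lower level is a log2 difference of -0.585 or lower. In comparisons with other sites over 5 kb from a TSS, lost sites at any distance were used unless stated. Motifs were exact letters on both strands in the 500 bases around a site's midpoint, which can reach past its ends. Repeat masking is that of the RefSeq sequence. Nearest-TSS, linkage, neighbour and motif searches were tested on simulated data, where all 40 planted pairs and all 100 planted motifs were found. Analyses used Python 3.11.15, pandas 2.3.3 and scipy 1.17.1. One site outside the set has its end rounded in the table.

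Named sites were the 10 lowest differences with a DKO concentration above 0, those at the lowest DKO value, the 10 highest WT levels, the 15 genes nearest to most lost sites, the 6 largest loci, Smad2 and Smad3, list genes and the sites at the threshold; the Lefty sequences, the FoxH1 windows, the coding genes and the promoter sites were added after their values were seen. The lost sites and gene lists were chosen with earlier results of these data known. A few sites that this rule names are not reported here.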

Additional observations from a re-analysis of the deposited data

How the results depend on the processing

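The number of strongly lost sites depends on both thresholds. It was 1101 with a WT minimum of 4, 133 with a minimum of 6, 766 when a 2.38-fold lower mean sufficed and 142 at -2 or lower, instead of 404; after centring on the median difference of eligible sites it was 318, with the left-out chromosome 6 segment kept 444 and, chosen after seeing the data, without chromosome 1 354. The share over 5 kb from a TSS stayed between 84.1% and 87.7% under these settings and with distances from the site's edge or without sites at the lowest DKO value, and was 91.1% with curated transcripts only. The share in multi-site loci moved to 10.8% and 2.26% with WT minimums of 4 and 6 and to 4.21% when sites were linked up to 25 kb. Genes nearest to 3 or more lost sites numbered 10 with protein-coding starts and 1 within 100 kb of the start, instead of 4. The ratio of FoxH1 shares, lost over other sites, was 8.43 in 200 bases and 1.96 with 2 free letters (chosen after seeing the data), instead of 5.49; that of Otx2 was 2.03 in 200 bases and 1.31 against sites over 5 kb from a TSS, instead of 1.64; against such sites those of the Smad GC box and the GC box were 0.317 and 0.496, instead of 0.175 and 0.229, and that of the GC box in 200 bases was 0.162. The median difference of sites within 2 kb was -0.73 instead of -0.65 with neighbours down to a WT concentration of 4. The causes were not tested.

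No paired analysis was possible because the deposited table holds no value per differentiation; for the same reason leaving out a replicate and another normalization were not run. Differences near the thresholds cannot be told from replicate spread.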

Other observations

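Some sites passed both thresholds but lay on the X chromosome or in the left-out segment of chromosome 6. On the X chromosome, 4 of 1107 sites with a WT concentration of at least 5 had a difference of -1.5 or lower (0.361%), the lowest at -2.03. In the left-out segment of chromosome 6, 40 of 149 did (26.8%), the median difference of all of them was -1.14 and the lowest was -3.39. Other sites missed only the WT minimum. On the other autosomes and parts of chromosome 6, 697 sites with a WT concentration of 4 to under 5 had a difference of -1.5 or lower.

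Sites strongly higher in DKO EpiLCs, with a DKO concentration of at least 5 and a difference of 1.5 or more, numbered 95. They lay within 50 kb of 2 lost sites (0.495%), beside 0.486% of the other eligible sites.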
